A study of Mus musculus with 12 samples.

Results

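The genes described here encode 8 enzymes of cholesterol synthesis: Hmgcs1, Mvd, Idi1, Fdps, Fdft1, Sqle, Lss and Cyp51. They were picked by name from the per-read table, using reads whose poly(A) tail call passed and whose annotated class was mRNA. All 8 had reads, and together they held 5022 of 4274320 kept reads (0.117%), among 14042 genes with at least 1 read. The cells were wild-type P19, a mouse embryonal carcinoma line. At day 0 (D0) they were undifferentiated and grew in DMEM with fetal bovine serum. At days 2, 4 and 6 (D2, D4 and D6) they had been held in NDiff 227 medium with 500 nM retinoic acid on poly-L-lysine. Medium, serum, retinoic acid, plating and time therefore changed together and cannot be told apart. There were 3 replicate libraries per day, 12 in all, sequenced as native RNA on nanopores, so that each read gives a transcript and the length of its tail.

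Animal cells build cholesterol from acetyl units in a chain of enzymes, first to mevalonate, then to the isoprenoid farnesyl diphosphate, then to the linear hydrocarbon squalene, which is closed into the sterol lanosterol and trimmed to cholesterol. Most of these genes are driven by the transcription factor SREBP2, which is released to the nucleus when sterols in the endoplasmic reticulum run low. HMGCS1 makes HMG-CoA at the head of the chain, MVD makes isopentenyl diphosphate, IDI1 isomerizes it, and FDPS joins these units into farnesyl diphosphate. FDFT1, SQLE and LSS make squalene, its epoxide and lanosterol in turn, and CYP51 removes a methyl group from lanosterol.

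SREBP2 binds sterol regulatory elements in promoters, usually beside sites for NF-Y and Sp1, and the sequences before the start of 4 of the enzymes are shown to set these letters beside the changes below. They are the 250 bases before the start annotated by RefSeq, taken from its sequence (build GRCm38.p6), in which 5 of the 8 enzymes were matched: Hmgcs1, Mvd, Idi1, Lss and Cyp51. Capitals mark, on either strand, the sterol regulatory element TCACNCCAC, the CCAAT box CCAAT and the GC box GGGCGG.
Hmgcs1, chr13:119690101-119690350, plus strand: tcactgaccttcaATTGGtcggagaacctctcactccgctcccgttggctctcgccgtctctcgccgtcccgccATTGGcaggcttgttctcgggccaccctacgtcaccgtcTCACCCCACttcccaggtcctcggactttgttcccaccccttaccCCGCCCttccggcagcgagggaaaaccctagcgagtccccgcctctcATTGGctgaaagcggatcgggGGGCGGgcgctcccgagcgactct
Mvd, chr8:122443423-122443672, minus strand: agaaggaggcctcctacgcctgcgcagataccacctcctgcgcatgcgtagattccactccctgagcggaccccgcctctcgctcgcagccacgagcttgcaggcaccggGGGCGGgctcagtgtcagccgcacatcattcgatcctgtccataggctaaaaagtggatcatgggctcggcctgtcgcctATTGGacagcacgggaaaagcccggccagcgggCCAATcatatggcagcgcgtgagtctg
Idi1, chr13:8885356-8885605, plus strand: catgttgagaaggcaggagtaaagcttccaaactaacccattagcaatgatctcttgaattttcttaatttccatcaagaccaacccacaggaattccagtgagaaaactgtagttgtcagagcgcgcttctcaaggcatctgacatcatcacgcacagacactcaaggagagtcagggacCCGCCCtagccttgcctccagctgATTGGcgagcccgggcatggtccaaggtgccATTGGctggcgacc
Cyp51, chr5:4104698-4104947, minus strand: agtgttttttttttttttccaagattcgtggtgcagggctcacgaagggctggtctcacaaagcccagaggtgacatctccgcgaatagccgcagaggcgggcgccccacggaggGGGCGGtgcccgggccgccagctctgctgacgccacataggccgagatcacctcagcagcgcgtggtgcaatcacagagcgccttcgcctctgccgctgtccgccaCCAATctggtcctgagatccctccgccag
The sterol regulatory element, spelled this strictly, was found only in Hmgcs1 among the 5, starting 137 bases before the start, and 1.05% of 32851 promoters of this length hold it. The CCAAT box was found in all 5 (33.8% of all promoters hold it), and so was the GC box (32.7%). The E-box CACGTG was in none of the 5 (6.02% of all promoters). Of these 5 genes, Hmgcs1, Lss and Cyp51 rose by D6, and Mvd and Idi1 did not pass the test. Other spellings of the element and bases farther away were not searched, and Fdps, Fdft1 and Sqle were not matched. Whether these letters bear on the changes was not tested. These are matches of letters, not measured binding.

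Kept reads per library ranged from 449406 to 613756 at D0, from 120326 to 241064 at D2, from 252203 to 435389 at D4 and from 271499 to 428800 at D6, so D2 was the shallowest day. Every sequencing run held 1 day, so run and day cannot be told apart. Of 8 embryonal carcinoma markers, 6 had reads and 5 were testable, and all 5 fell by D6. The summed level of that list was 2119 to 2438 CPM (reads per 1000000 kept reads, after scaling) at D0 and 181 to 229 at D6, with Zfp42 and Dppa5a at 0 reads throughout. All 7 neuronal markers rose by D6 (578 to 615 summed at D0, 2829 to 3069 at D6), and all 5 neural progenitor markers rose (197 to 242, then 896 to 956). Endoderm markers stayed at or near 0 (at most 7.84 summed, with Gata4, Sox17 and Afp at 0 reads), while mesoderm and muscle markers went from 55.6 to 65.1 at D0 to 8.39 to 14.8 at D6 and glia markers from 21.0 to 37.9 to 29.8 to 40.8. The part of cell type in the changes below was not tested. In bulk RNA, fewer cells of a type and less RNA per cell cannot be told apart.

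Of the 8 enzymes, 6 rose between D0 and D6 and none fell. Hmgcs1 and Fdft1 had the largest changes, Sqle, Cyp51, Fdps and Lss also rose, with the call for Lss the least stable, and Mvd and Idi1 did not pass the test. At D4, 5 of the 8 had risen (the same list without Lss), and at D2 only Hmgcs1. Over all 9309 genes tested, 19.4% rose at D6, 12.6% at D4 and 4.48% at D2, and 18.2% fell at D6. The median log2 fold change over the 8 enzymes was 0.84 at D6, 0.66 at D4 and 0.60 at D2, and over all genes 0.02, -0.00171 and -0.05. These values come from limma-voom on reads per gene in all 12 libraries, with Benjamini-Hochberg adjustment over all genes and calls at an adjusted p of at most 0.05. After every library was thinned to the reads of the smallest, 2 of the 8 were called at D4 and at D6, Hmgcs1 and Fdft1. The comparisons of D2, D4 and D6 share the D0 libraries and are not independent of each other. When libraries were scaled by total reads in place of the trimmed mean, the median over all genes moved up by 0.19 at D2, 0.13 at D4 and 0.24 at D6, and the share of calls that were rises went from 41.5% to 65.9%, from 49.7% to 62.5% and from 51.7% to 69.0%. All levels below are in CPM and are compared only within a gene, and gene positions are on build mm10. Summed over the 8, D0 had 865 ± 33.9 CPM (SD, n = 3), D2 had 1211 ± 112, D4 had 1356 ± 73.4 and D6 had 1399.6 ± 68.4.

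**Figure D1:**
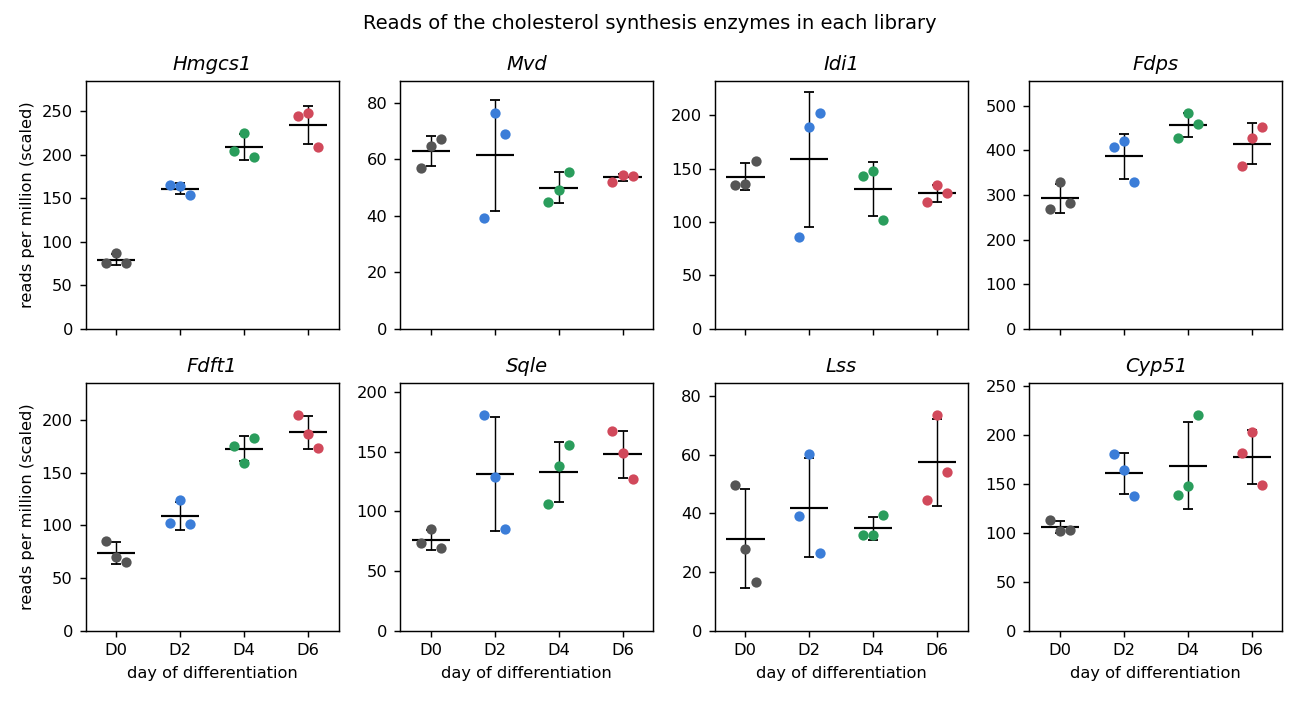
Level of each enzyme in each library. The x axis is the day, the y axis is CPM from 0, points are single libraries, and bars are the mean with SD (n = 3). The 3 D0 points of Hmgcs1, Fdps, Fdft1, Sqle and Cyp51 lie under all 3 D6 points, while those of Lss overlap them and those of Mvd and Idi1 lie above them.

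Hmgcs1 (chr13:119690379-119708260, plus strand), the synthase that commits acetyl units to HMG-CoA, measured 75.8, 87.1 and 75.6 CPM in the 3 D0 libraries. It measured 165, 165 and 154 at D2, 204, 225 and 197 at D4, and 245, 247 and 208 at D6. Every later library lay above every D0 library. The log2 fold change from D0 was 1.02 ± 0.21 (SE) at D2 (adjusted p = 0.000318), 1.38 ± 0.18 at D4 (adjusted p = 6.82e-09) and 1.54 ± 0.18 at D6 (adjusted p = 8.93e-11), the last being 2.90-fold with a 95% interval of 2.27 to 3.71. A mapping quality under 10 was given to 94.7% of its reads, and with the others alone the D6 change was 2.24 (adjusted p = 0.0456) and the D2 change 1.58 (adjusted p = 0.383).

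Neither Mvd nor Idi1, later in the mevalonate part of the chain, passed the test. Mvd (chr8:122433601-122443422, minus strand), the decarboxylase that makes isopentenyl diphosphate, measured 56.9, 64.8 and 67.2 CPM at D0 and 52.0, 54.5 and 54.1 at D6, on only 5 to 35 reads per library. Its D6 libraries lay below the D0 libraries, but the log2 fold change was -0.22 with a 95% interval from -0.71 to 0.27 (adjusted p = 0.513), and 0.02 when scaled by total reads. Idi1 (chr13:8885501-8892451, plus strand), the isomerase, measured 135, 135 and 157 CPM at D0 and 119, 134 and 127 at D6. Its D6 libraries also lay below those of D0, the nearest being 134.2 and 135.1 CPM. The log2 fold change was -0.15, with a 95% interval from -0.53 to 0.23 (adjusted p = 0.566), and 0.09 under scaling by total reads. The share of all genes with D6 libraries wholly below those of D0 was not counted. At D2 Idi1 was spread widely, at 86.2, 189 and 202 CPM, the lowest being the shallowest library of the series with 11 reads of the gene.

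Fdps (chr3:89093588-89101959, minus strand), which makes farnesyl diphosphate and had the most reads of the 8, measured 268, 330 and 281 CPM at D0. It measured 408, 421 and 329 at D2, 428, 483 and 459 at D4, and 364, 428 and 452 at D6. D4 and D6 lay wholly above D0, and D2 overlapped it by 1 library. The change was the smallest among the enzymes that rose at each of these days, at 0.65 ± 0.13 at D4 (adjusted p = 8.56e-05) and 0.51 ± 0.13 at D6 (adjusted p = 0.00152), or 1.42-fold at D6 with a 95% interval of 1.18 to 1.70.

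Fdft1 (chr14:63145150-63179578, minus strand), squalene synthase, takes farnesyl diphosphate into the sterol branch. It measured 85.3, 70.4 and 65.1 CPM at D0, 102, 124 and 101 at D2, 175, 159 and 183 at D4, and 204, 187 and 173 at D6. All later libraries lay above all D0 libraries. The change was 1.23 ± 0.19 at D4 (adjusted p = 4.13e-07) and 1.35 ± 0.19 at D6 (adjusted p = 1.79e-08), a 2.55-fold rise with a 95% interval of 1.97 to 3.30.

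Sqle (chr15:59315077-59331192, plus strand), the oxygen-using squalene epoxidase, measured 73.5, 85.2 and 69.3 CPM at D0, 106, 138 and 155 at D4, and 167, 149 and 127 at D6. At D2 its libraries spread from 84.96 to 180.3, and the lowest fell just inside the D0 range. The D6 change was 0.93 ± 0.20 (adjusted p = 0.000158), or 1.90-fold.

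Cyp51 (chr5:4081145-4104746, minus strand) measured 114, 102 and 103 CPM at D0 and 182, 203 and 149 at D6, and all D2, D4 and D6 libraries lay above those of D0. Its change was 0.68 ± 0.18 at D4 (adjusted p = 0.00382) and 0.75 ± 0.18 at D6 (adjusted p = 0.000696). Without D4 replicate 3, whose 220.3 CPM was the highest value of the gene, the D4 change was 0.45 (adjusted p = 0.119). The D4 call was also lost with a mapping quality of at least 10 (0.53, adjusted p = 0.0556) and when thinned (0.83, adjusted p = 0.0904). The mapping filter removed none of the 635 reads of Cyp51, only reads of other genes.

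Lss (chr10:76531588-76557138, plus strand), which closes squalene epoxide into lanosterol, was the least read of the 8, with 5 to 35 reads per library. It measured 49.8, 27.8 and 16.8 CPM at D0, 32.6, 32.8 and 39.4 at D4, and 44.5, 73.4 and 54.1 at D6, and the D0 and D6 libraries overlapped. The D6 change was 1.04 ± 0.31 (adjusted p = 0.00511) with a fold of 2.06 and a 95% interval of 1.35 to 3.16. This call was lost in 5 of 25 settings, among them without D0 replicate 3, the lowest library (0.66, adjusted p = 0.107), and without D6 replicate 2, the highest (0.82, adjusted p = 0.0706). The change was near 0 when libraries were thinned to the smallest (0.071, adjusted p = 0.954).

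**Figure D2:**
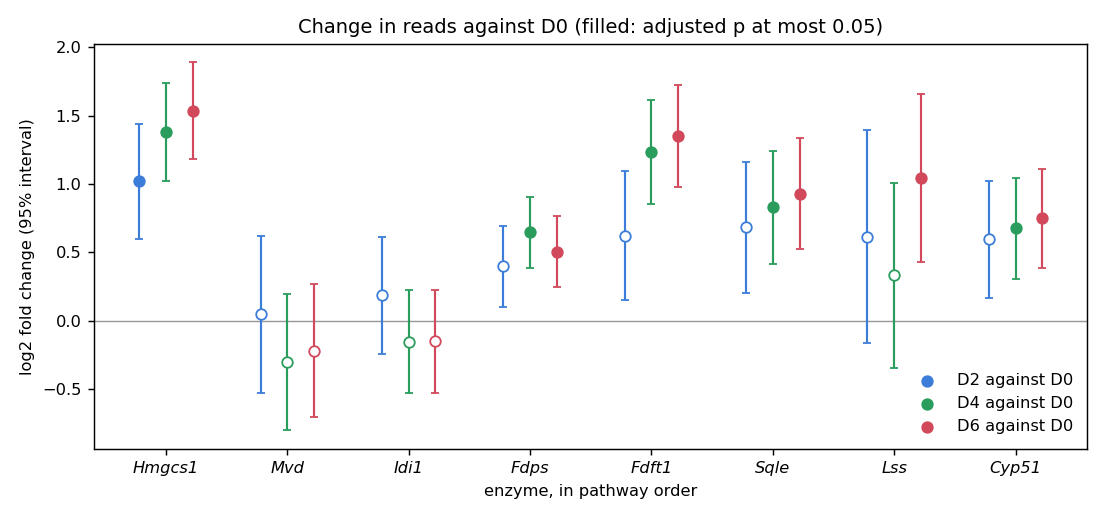
Change of each enzyme against D0, in pathway order. The y axis is the log2 fold change with its 95% interval from limma-voom, colours are days, and filled points have an adjusted p of at most 0.05. Hmgcs1 is filled at all 3 days, Lss at D6 only, and Mvd and Idi1 at none.

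At D2, 5 of the 8 enzymes had an unadjusted p under 0.05, all higher than at D0, as did 10.5% of all genes in that direction. Besides Hmgcs1 these were Sqle (log2 fold change 0.68, adjusted p = 0.0529), Cyp51 (0.60, adjusted p = 0.0594), Fdps (0.40, adjusted p = 0.0743) and Fdft1 (0.62, adjusted p = 0.0799). With scaling by the median of ratios or by total reads, the 5 were called at D2, so the count there depended on the scaling and is read as 1 to 5 of 8. Without D4 replicate 3 it was 3, and without D2 replicate 3 or D6 replicate 1 it was 2. Between neighbouring days limma-voom called none of the 8, either for D4 against D2 (3.03% of all genes were called, in either direction) or for D6 against D4 (8.36%). At an unadjusted p under 0.05 there was 1 in each, where 15.8% and 21.6% of all genes reached it in either direction: Fdft1 from D2 to D4 (0.61, adjusted p = 0.118) and Lss from D4 to D6 (0.71, adjusted p = 0.162). For Hmgcs1 the 95% interval from D4 to D6 ran from -0.15 to 0.46.

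Counts of libraries that lay apart gave the same 5 genes at D4 and D6: Hmgcs1, Fdps, Fdft1, Sqle and Cyp51, each with all 3 libraries above all 3 of D0. Over all genes tested, 17.8% lay so at D4 and 23.6% at D6. At D2 there were 3 such enzymes, Hmgcs1, Fdft1 and Cyp51, and 9.83% of all genes. By sequencing run in place of library, Hmgcs1 held 57.1 to 86.4 CPM (here without scaling) in the 3 runs of D0 and 220 to 439 in the 4 runs of D6. Fdft1 held 59.2 to 72.4 and 176 to 227, Fdps 220.3 to 302 and 439 to 464, Cyp51 86.4 to 111 and 153 to 291, Sqle 50.2 to 88.8 and 129 to 184, and Lss 22.3 to 33.9 and 34.2 to 95.4. The runs of Mvd (32.9 to 72.4, then 34.2 to 65.8) and of Idi1 (105 to 142, then 115 to 222) overlapped. Runs divide the same reads as the libraries, so they are not separate support. Those of Lss lay apart only narrowly, at 33.9 against 34.2, though its libraries overlapped.

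The balance between the enzymes was also compared within each library. There were 1.13 to 1.34 reads of Hmgcs1 per read of Mvd at D0, 3.54 to 4.57 at D4 and 3.85 to 4.71 at D6. D0 overlapped neither of these later days. For Hmgcs1 over Idi1 the ratio was 0.48 to 0.64 at D0 and 1.64 to 2.06 at D6, and for Fdps over Idi1 it was 1.79 to 2.44 and 3.06 to 3.55. Fdft1 over Fdps was 0.21 to 0.32 at D0 and 0.38 to 0.56 at D6. Sqle over Fdft1 was 0.86 to 1.21 and 0.73 to 0.82. The ratios over Mvd and Idi1 set an enzyme that rose over one that was not called. They use the same reads as the levels above, so they are not separate support. The share of all gene pairs lying so was not counted. These ratios do not depend on how libraries were scaled. Each gave p = 0.10 by a two-sided exact permutation test of D6 against D0, the smallest that 3 against 3 libraries allow. As a share of the reads of all 8, Hmgcs1 went from 9.18% ± 0.42 (SD, n = 3) at D0 to 16.7% ± 1.1505 at D6, Fdft1 from 8.51% ± 1.24 to 13.4% ± 1.198, Idi1 from 16.5% ± 2.04 to 9.06% ± 0.42 and Mvd from 7.29% ± 0.71 to 3.83% ± 0.17. The shares of Fdps, Lss and Cyp51 at D6 overlapped those at D0.

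Over the 12 libraries the log2 level of Hmgcs1 followed that of Fdft1 (Pearson r = 0.94) and Fdps (0.85), and that of Sqle followed Cyp51 (0.90). Mvd and Idi1 followed each other (0.74), and each had a negative r with all 6 others. Outside the list, the genes whose log2 levels were most like the mean profile of the 8, among 2789 genes averaging 20 or more reads a library, were Hoxb7 (r = 0.945), Cdc42ep4 (0.935), Hoxb3 (0.931), Bzw1 (0.929) and Sh3bgrl (0.915). Hoxb7 and Hoxb3 are homeobox genes and were at 0 CPM in D0. Libraries of a day share their runs and their place in the time course, so these r values describe the course of the days.

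The other enzymes of cholesterol synthesis behaved as a mixed group. Of 13, 6 rose and none fell at D6, among them Acat2, Msmo1 and Nsdhl, with a median log2 fold change of 0.61. At D2 2 rose, Acat2 and Nsdhl. Acat2, which joins acetyl units before HMGCS1, changed by 0.82 ± 0.15 (adjusted p = 5.76e-06), and Msmo1, the methylsterol oxidase acting after CYP51, by 0.86 ± 0.18 (adjusted p = 7.75e-05). Mvk and Pmvk, the kinases acting just before MVD, were at 0.18 and -0.12 at D6 (adjusted p = 0.627 and 0.760). They were named after their values were seen, because they stand beside Mvd in the chain.

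Among 10 genes of sterol sensing, 8 were testable and 2 rose at D6, near the 19.4% of all genes. Srebf2, which encodes SREBP2, changed by 0.73 ± 0.19 at D6 (adjusted p = 0.00146), by 0.70 ± 0.22 at D2 (adjusted p = 0.0262) and by 0.28 at D4, where it was not called (adjusted p = 0.319). Insig1, which holds SREBP precursors in the endoplasmic reticulum and is itself an SREBP target, was at 0.40 at D2 (adjusted p = 0.522) and changed by 1.02 ± 0.26 at D4 (adjusted p = 0.00234) and at D6 (adjusted p = 0.00150). Srebf1 was at -0.26 (adjusted p = 0.450) and Mbtps1, a protease that cuts SREBPs, at -0.13 (adjusted p = 0.665). Among 11 genes of sterol uptake, transport and storage, 8 were testable, 1 rose and 3 fell at D6 (19.4% and 18.2% of all genes). Apoe, a lipoprotein component, fell by 2.86 on the log2 scale (adjusted p = 2.98e-09), and Soat1, which esterifies cholesterol for storage, fell by 2.45 (adjusted p = 6.59e-07), as did Scarb1, a lipoprotein receptor, by 1.56 (adjusted p = 0.00707). Npc2, which carries cholesterol out of lysosomes, rose by 0.58 ± 0.14 (adjusted p = 0.000787).

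Of 10 fatty acid synthesis genes, 2 rose and 3 fell at D6, beside the same shares of all genes. Acly, which makes the acetyl-CoA that both pathways use, rose by 0.86 ± 0.15 (adjusted p = 1.92e-06), as did Fads1, a desaturase, by 0.58 ± 0.18 (adjusted p = 0.00785). Elovl6, Scd1 and Me1 fell by 1.78, 1.37 and 1.25 (adjusted p = 0.000220, 3.64e-06 and 0.00392). Fasn, fatty acid synthase, fell at D4 (-0.61, adjusted p = 0.00199) and was at -0.23 at D6 (adjusted p = 0.234). Scd2 was at 0.13 at D6 (adjusted p = 0.382). Of 12 genes that draw on farnesyl or isopentenyl diphosphate for other products, none rose and 1 fell at D6, Nus1 (-0.93, adjusted p = 0.00295), a partner in dolichol synthesis. The median log2 fold change of the 12 at D6 was 0.43, against 0.02 over all genes, and those of the sensing, uptake and fatty acid lists were 0.31, -0.32 and 0.01. Coq2, of ubiquinone synthesis, rose at D2 (1.25, adjusted p = 0.0365) and D4 (1.32, adjusted p = 0.00358) and was at 0.75 at D6 (adjusted p = 0.113).

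The reads also gave the transcript and its end. Idi1 and Cyp51 each had 1 transcript with at least 5% of the reads, Hmgcs1, Mvd, Fdps and Sqle had 2, and Fdft1 and Lss had 3. Hmgcs1-201 and Hmgcs1-202 held 53.9% and 46.1% of the reads at D0 and 54.4% and 45.6% at D6, and both rose at D6 by 1.49 (adjusted p = 3.45e-06 and 6.26e-06). For Fdps, Fdps-201 rose by 0.60 ± 0.14 (adjusted p = 0.00102) and Fdps-203 was at -0.05 (adjusted p = 0.911), and for Sqle, Sqle-201 rose by 1.12 ± 0.23 (adjusted p = 0.000157) and Sqle-202 was at -0.39 (adjusted p = 0.609). The difference within each pair was not tested. Of the reads of Mvd, 32.8% were assigned to Mvd-202, annotated as a target of nonsense-mediated decay. Of those of Lss, 50.9% were assigned to Lss-204 and 17.7% to Lss-207, both annotated as retaining an intron. Which transcript of a gene a truncated read came from is uncertain where transcripts share their 3′ part. A mapping quality under 10 was given to 94.7% of the reads of Hmgcs1, 70.3% of Lss and 66.4% of Mvd. The share was 62.2% for Fdft1, 62.0% for Fdps and 19.6% for Sqle. The splits between transcripts of these genes are therefore uncertain, and the rises of the Hmgcs1 transcripts may not be separate.

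In 6 of the 8 genes nearly all reads on a matched transcript ended at 1 place, with 96.8% of the reads of Hmgcs1 ending 1604 bases past the stop codon, and 100% of those of Fdps only 55 bases past it. Distances here are in genome coordinates, and reads ending within 60 bases of the next were taken as 1 site, a limit set after the data were seen. Hmgcs1 had a second, rare end 429 bases past the stop codon, with 13 reads. None of these were among its 115 reads at D0, which allows a share of up to 2.61% by counting error alone, and the share was 1.52 to 2.60% at D6.

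Cyp51 and Lss were the exceptions, and Cyp51 had 5 ends past its stop codon. Of its 635 reads, 33.4% ended about 587 bases past the stop codon, 46.6% about 1011 bases past it, 8.35% at 1498, 2.05% near 1824 and 7.56% at 1974, each given by its most used base. The bases around the hexamer that lies within 45 bases before each end are given here, because AATAAA and its variant ATTAAA are the usual signals for cleavage and tailing. They are read from the mouse transcript on build mm10, and capitals mark the hexamer.
Cyp51, end 587 bases past the stop, chr5:4082542-4082571, minus strand: ctaaaagtAATAAAatctaaagagtgctta
Cyp51, end 1011 bases past the stop, chr5:4082115-4082144, minus strand: ctccccaaAATAAAacctcttttctctaaa
Cyp51, end 1498 bases past the stop, chr5:4081627-4081656, minus strand: ggctccacATTAAAattctctgagaaagtt
Cyp51, end 1824 bases past the stop, chr5:4081316-4081345, minus strand: aaaccttgATTAAAgtttgaagactgtttg
Cyp51, end 1974 bases past the stop, chr5:4081150-4081179, minus strand: aaaccttgATTAAAgtttgatgattgtttc
The 2 ends that held most reads carried AATAAA, 26 and 23 bases before the most used base, and the 3 farther ends carried ATTAAA, 22, 37 and 21 bases before. The share of Cyp51 reads at the first end was 31.0% ± 6.51 (SD, n = 3) at D0 and 33.9% ± 3.78 at D6, and at the second 49.6% ± 9.38 and 41.7% ± 5.29. Both overlapped between the days (two-sided exact permutation test, p = 0.50 and 0.30, where the smallest possible is 0.10). At the first end the median tail was 89.7, 105 and 114 nt in the D0 libraries ranked by length and 123, 145 and 158 nt at D6, with 12 to 37 reads behind each (two-sided exact permutation test, p = 0.10, the smallest possible). It was 122 to 141 nt at D2 and 107 to 132 nt at D4. At the second end the D0 and D6 libraries overlapped (111 to 125 nt and 98.96 to 133 nt).

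**Figure D3:**
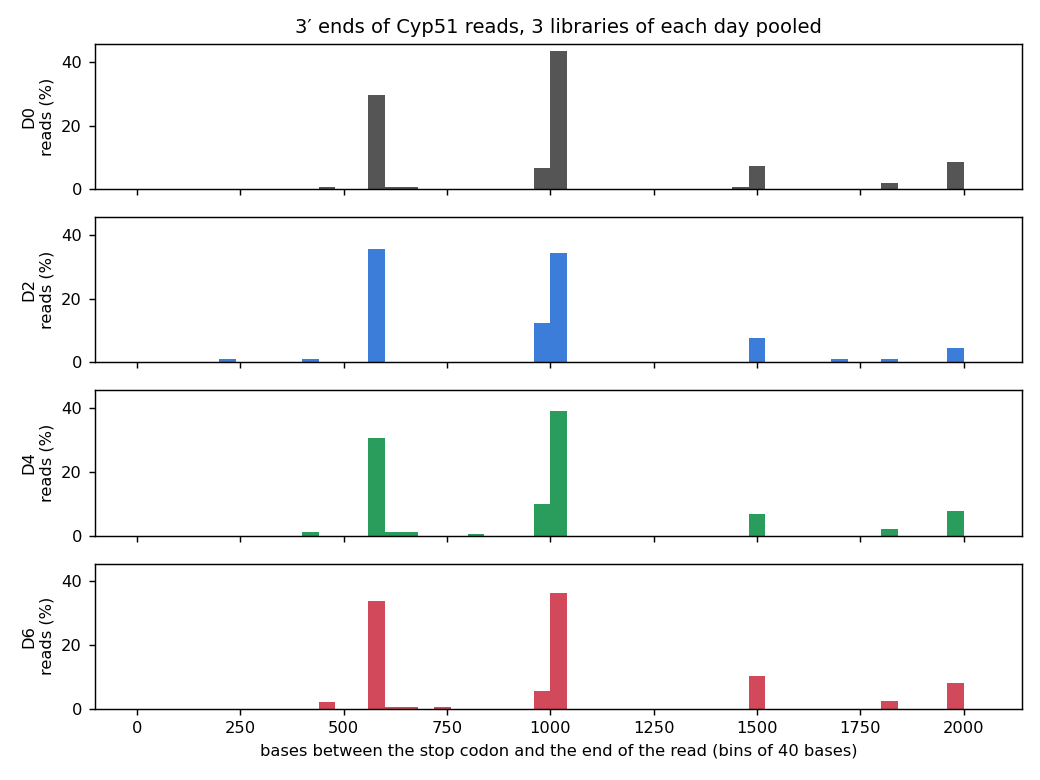
3′ ends of Cyp51 reads. The x axis is the distance from the stop codon in bins of 40 bases, the y axis is the percent of the day's reads, and each panel pools the 3 libraries of a day. The tallest bars stand near 587 and 1011 bases in all 4 panels.

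Lss had 2 main ends and a minor one. Of its 175 reads, 65.1% ended 866 bases past the stop codon and 23.4% ended 4070 bases past it, at the far end of Lss-204. Both carried AATAAA, 19 and 22 bases before the end.
Lss, end 866 bases past the stop, chr10:76553908-76553937, plus strand: atcctgaaAATAAAatattaaaaacaacca
Lss, end 4070 bases past the stop, chr10:76557109-76557138, plus strand: caatgacaAATAAAgtgtggcactgcttgg
The far end held 19.05%, 20% and 12.5% of the reads in the D0 libraries, 0%, 20% and 0% at D2, 12.5%, 28.6% and 23.5% at D4, and 33.3%, 28.6% and 35% at D6. D6 lay above D0 without overlap, on 1 to 10 reads per library (two-sided exact permutation test, p = 0.10, the smallest possible). A mapping quality under 10 was given to 90.4% of the reads at the near end and to 0% at the far end. An antisense gene is annotated over both ends, which lie in its introns, and the table gives no strand. Counted without the far end, Lss at D6 was 0.77 above D0 (adjusted p = 0.0662), and the call was lost. This count was added after the data were seen.

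**Figure D4:**
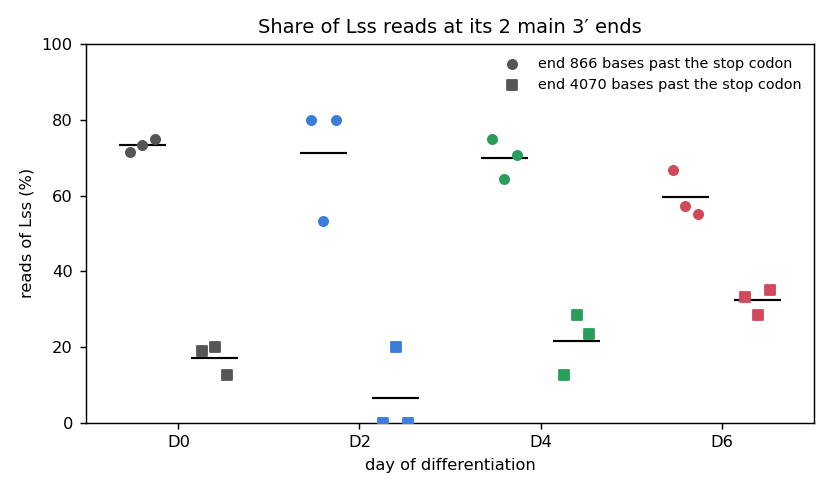
Share of Lss reads at its 2 main ends. The x axis is the day, the y axis is the percent of Lss reads in a library from 0 to 100, circles are the end 866 bases past the stop codon, squares the end 4070 bases past it, and lines are means. Squares sit at 28.6 to 35% at D6 and at 12.5 to 20% at D0.

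A poly(A) tail protects an mRNA and helps its translation, and its length was read for each molecule. The enzymes differed among themselves in tail length. Hmgcs1 had the longest median tail of the 8 in 8 of the 12 libraries and was never the shortest, while Fdps was the shortest in 7 and never the longest. Hmgcs1 exceeded Fdps in all 12 libraries, by 17.8 to 69.2 nt with a median of 43.2 nt. At D0 the mean of the library medians was 127 ± 6.80 nt (SD, n = 3) for Hmgcs1 and 86.0 ± 8.21 nt for Fdps, and at D6 it was 149 ± 2.96 and 97.1 ± 5.21 nt. Among 4205 genes with enough reads, 89.4% had shorter tails than Hmgcs1 at D0 and 94.8% at D6, against 3.31% and 18.0% for Fdps. The other 6 had means between 99.7 nt (Idi1) and 115 nt (Cyp51) at D0, where the median gene stood at 107 nt.

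**Figure D5:**
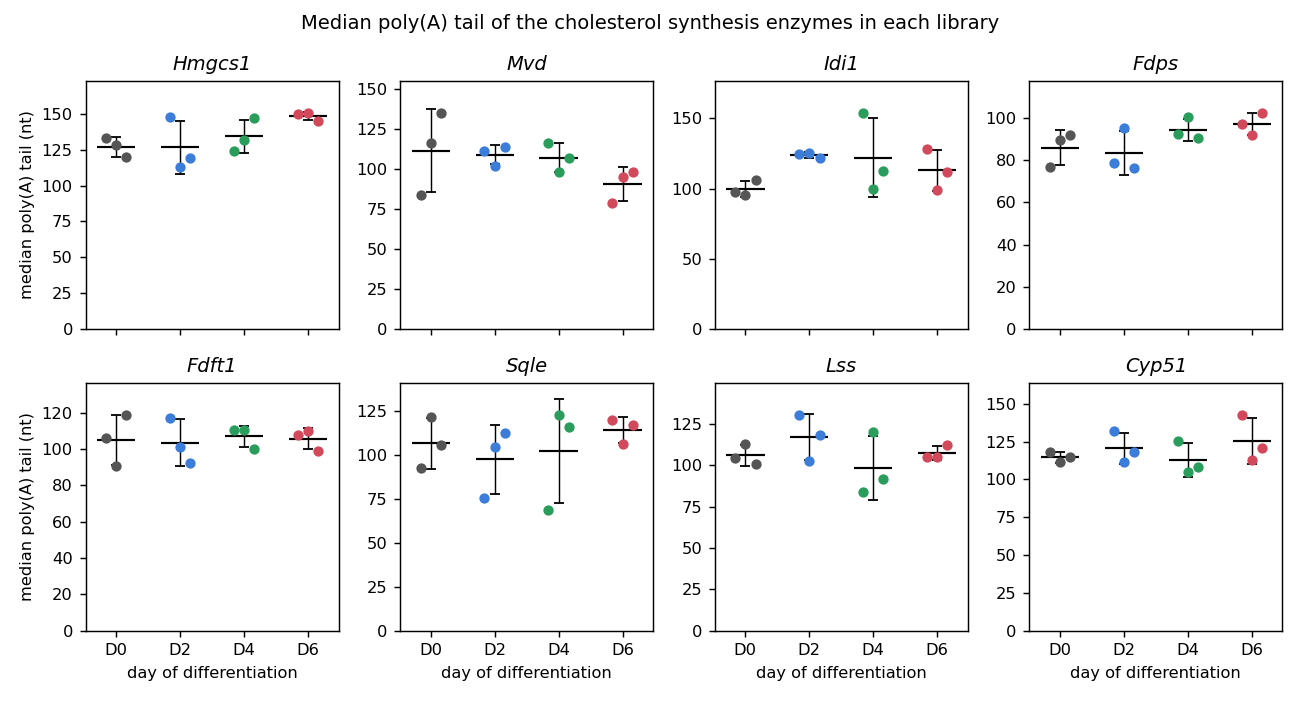
Median poly(A) tail of each enzyme in each library. The x axis is the day, the y axis is the median tail in nt from 0, points are libraries, and bars are the mean with SD (n = 3). The 3 D6 points of Hmgcs1, at 145 to 151 nt, lie above its D0 points, and those of Fdps do so at lower lengths, and the D0 and D6 points of the other 6 overlap.

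The median tails of Hmgcs1 were 133, 128 and 120 nt at D0 and 150.1, 151 and 145 nt at D6. Those of Fdps were 76.6, 89.5 and 91.8 nt at D0 and 97.0, 91.9 and 102 nt at D6. In both genes the D6 libraries lay above the D0 libraries, for Fdps by under 1 nt, and 12.4% of 4205 genes lay so. The log2 change was 0.23 ± 0.11 for Hmgcs1 (unadjusted p = 0.0471, adjusted p = 0.319 by limma) and 0.16 ± 0.07 for Fdps (unadjusted p = 0.0395, adjusted p = 0.297 by limma). Idi1 measured 97.5, 95.7 and 106 nt at D0 and 124, 126 and 122 nt at D2, again without overlap, as in 3.73% of genes (0.31 ± 0.14, adjusted p = 0.410 by limma), and its D6 libraries ran from 99.2 to 128 nt. None of these passed the threshold.

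By limma, 0 of the 8 enzymes were called for the median tail at D2, D4 or D6 (1, 0 and 2 at an unadjusted p under 0.05), where 2.52%, 3.35% and 4.61% of 4205 genes were called in either direction and 9.49%, 10.7% and 15.2% had an unadjusted p under 0.05. The 95% intervals for the ratio of D6 to D0 tails lay between 0.64 and 1.37 over the 8. For the share of tails under 30 nt, 0 of the 8 were called at any day (1, 0 and 0 at an unadjusted p under 0.05), against 0%, 0.904% and 1.59% of all genes called and 5.78%, 11.7% and 9.87% at the unadjusted threshold. At D2 no gene was called for that share, with 243 of 4205 at an unadjusted p under 0.05. Fdps, the 1 enzyme at an unadjusted p under 0.05, held such short tails in 18 of 425 reads at D0 and 18 of 219 at D2 (a difference of 3.98 percentage points, adjusted p = 0.800 by limma). For the share from 30 to 90 nt, 0 of the 8 were called and 0 reached an unadjusted p under 0.05, against 2.62%, 3.47% and 3.8% of all genes called and 8.80%, 10.3% and 12.8% at the unadjusted threshold. Hmgcs1 held 23.5% of its reads in that class at D0 and 17.6% at D6, and Fdps 46.1% and 41.8%. Lss and Mvd had few reads (25 to 67 and 37 to 91 per day), and their intervals for the ratio at D6 ran from 0.77 to 1.31 and from 0.64 to 1.04.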

How the data were processed

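Direct RNA reads of P19 cells at D0, D2, D4 and D6 (3 libraries per day) were analysed. The authors used Guppy for base calling, Minimap2 (version 2.20 per the submitters' processing notes) for alignment to GENCODE transcripts of mm10, Deeplexicon for barcodes and Nanopolish for tail lengths. Their deposited table has 1 line per alignment, with tail length in nt, a mapping quality score set by the aligner, and a barcode confidence given by the authors as a fraction. A second table the authors deposited holds log2 fold changes and adjusted p-values from their DESeq2 fit, and was not used.

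Libraries were grouped by their sample labels, although the run names of D0 carry the mark D2 and some D6 runs name no day. Of 6306434 lines, 69 were malformed and 289260 had no barcode. PASS reads of class mRNA were tallied here per gene (0.5 reads added for logs) and scaled by the trimmed mean of M-values (30% of ratios and 5% of levels trimmed, computed here). Genes with at least 30 reads were fitted with limma-voom (limma 3.58.1, R 4.3.3) on all 12 libraries with day as the term. Median tails (log2) and percentages of tails under 30 nt or from 30 to 90 nt were fitted with limma, weighted by reads, for genes averaging 10 or more reads a library and never under 3. Fits were tested on simulated data. Exact permutation tests (two-sided) of single values were run in Python 3.11.15, and figures were drawn with matplotlib 3.10.9. The replicates are biological per the study. The limma p-values use the spread between replicates within days, pooled over the 4 days and drawn toward that of other genes. Differences between days in preparation or run are not part of that spread. The exact p-values come from reassigning libraries to days. Intervals on reads cover counting error only, and a read is 1 molecule.

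The members, gene lists and tests were chosen with earlier results of these data known. Named genes were the 8 members and from each list up to 4 genes with the most reads, plus the 5 genes most alike over the libraries and transcripts with at least 5% of a member's reads. Genes that passed the test are named beyond this where a count is small. Transcript positions were read from an annotation of build mm10, in which 103 of the 5022 reads lay on a transcript that was not matched and were left out of the analysis of ends. Alternatives were scaling, filters on reads, mapping quality and barcode confidence, thinning, transcripts, a replicate block and leaving out each library. Some genes of these lists are not reported here.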

Additional observations from a re-analysis of the deposited data

How the results depend on the processing

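Hmgcs1 and Fdft1 stayed called at D4 and D6 under every alternative tried, as Hmgcs1 did at D2 except with a mapping quality of at least 10 (1.58, adjusted p = 0.383). The number of enzymes higher at D2 went from 1 to 5 with scaling by the median of ratios and by total reads, to 3 with at least 120 reads and to 2 with any class of read, and leaving out single libraries gave 1 to 3. The replicate numbers pair no samples by the labels, and same-numbered libraries correlated between -0.138 and 0.172 and others between -0.202 and 0.171. With a replicate block 2 enzymes were higher at D2 (Sqle 0.70, adjusted p = 0.0376), 5 at D4 and 6 at D6, and no other call of an enzyme changed. Thinned to the smallest library, 2 were higher at D4 and 2 at D6, where fewer reads were tested. With the most read transcript of each enzyme 2 were higher at D4 than at D2. Leaving out single libraries gave 4 to 5 higher at D4 and 5 to 6 at D6.

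Over all genes, calls at D2 went from 1005 to 1615 without a filter, 633 at a mapping quality of at least 10, 282 thinned and 645 to 1072 without 1 library (fewest without D2 replicate 2). Calls at D4 were 624 thinned. Those at D6 were 2322 with at least 120 reads, 2201 by mapping quality and 1199 thinned. Calls from D2 to D4 were 433 with any tail tag, 112 thinned and 149 to 316 without 1 library (fewest without D2 replicate 2), and from D4 to D6 394 by mapping quality, 190 thinned and 472 to 806 without 1 library (472 without D4 replicate 2, 487 without D6 replicate 2). For median tails, calls were 2, 0 and 0 at D2, D4 and D6 without weights, and 297 at D6 for mean length. For tails under 30 nt they were 2, 2 and 4 without weights, 3 and 78 at D2 and D4 with limits of 35 and 85 nt, and 0 to 6, 18 to 43 and 30 to 75 without 1 library (at D4 18 without D0 replicate 2, and at D6 30, 37, 40 and 30 without D0 replicates 2 and 3 and D6 replicates 1 and 2). For tails of 30 to 90 nt they were 0, 0 and 0 without weights. None of these settings called a tail of the 8 enzymes, and 15 of 24 estimates of their median tails changed sign under at least 1 setting.

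Signs changed only for enzymes that were not called. Mvd at D2 was -0.045 by barcode confidence and -0.14 to 0.19 without 1 library. At D4 it was 1.06 by mapping quality and 0.23 thinned, and at D6 0.019 by total reads, 0.39 by mapping quality and 0.69 thinned. Idi1 at D4 was 0.072 thinned and -0.30 to 0.040 without 1 library, and at D6 0.090 by total reads and 0.012 thinned. Lss was -0.46 by mapping quality at D2, and at D4 -0.12 thinned and -0.011 to 0.67 without 1 library. The cause of these changes was not tested. The depth of D2 and the few reads of Lss and Mvd limit what could be detected.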
